A study of Triticum aestivum with 72 samples.

Results

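Line G30 is 1 of 36 lines of the bread wheat mapping population RL4452 × AC Domain whose developing seeds were profiled on an Affymetrix wheat array. Its members here are the 2 arrays titled with that genotype, replicates 1 and 3, out of 72 arrays. They were compared with the means of the other 35 lines, each also with 2 arrays, over 61179 probe sets. All lines share the cross, the field, the lattice layout and the seed stage, 5 days after anthesis, and none carries a treatment or a transgene. Every sample is bulk seed of 1 line, so fewer cells of a type and less RNA per cell cannot be told apart. The labels give no marker genotype of the lines and do not say how many plants entered a sample, and neither parent was analysed here.

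Shortly after anthesis the wheat grain consists largely of green maternal pericarp around a young endosperm whose nuclei are dividing and whose cell walls are being formed. Starch and storage protein deposition in the endosperm starts at about this stage and becomes dominant later. Lines of a biparental population carry different mixtures of the parental alleles, so a transcript controlled by 1 segregating locus usually takes the same few levels in many lines. Bread wheat also carries near-identical gene copies on 3 subgenomes that a probe set may not separate.

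The G30 arrays were alike. Over the 6118 most variable probe sets (10% of the array) Pearson's r between them was 0.955, and each was the nearest array of the other. That held for 8 of the 36 lines, whereas in 22 lines neither array was nearest to its partner. The nearest array of another line was D15 replicate 3, with r of 0.938 to replicate 1 and 0.926 to replicate 3. Correlations with the 70 arrays of other lines ran down to 0.719 for replicate 1 and 0.696 for replicate 3. Both G30 arrays were hybridised on the same day, 1 of 12 days in the run records, which was true of 1 further line, F38a. The other 6 arrays of that day, from the lines A77, D15, D39, E5, G32 and H5, had a median r of 0.896 with replicate 1 and 0.878 with replicate 3. The 64 arrays of other days had medians of 0.856 and 0.839. Values of these same-day arrays are therefore given beside some of the results, and the part of the day was not tested unless a value is given. A result printed without a same-day value may also hold a difference between days. The log2 ratio of 3 prime to 5 prime signal of 7 control genes, a sign of RNA integrity, was 0.780 and 0.966 in the G30 arrays, ranks 19 and 36 of 72.

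**Figure D1:**
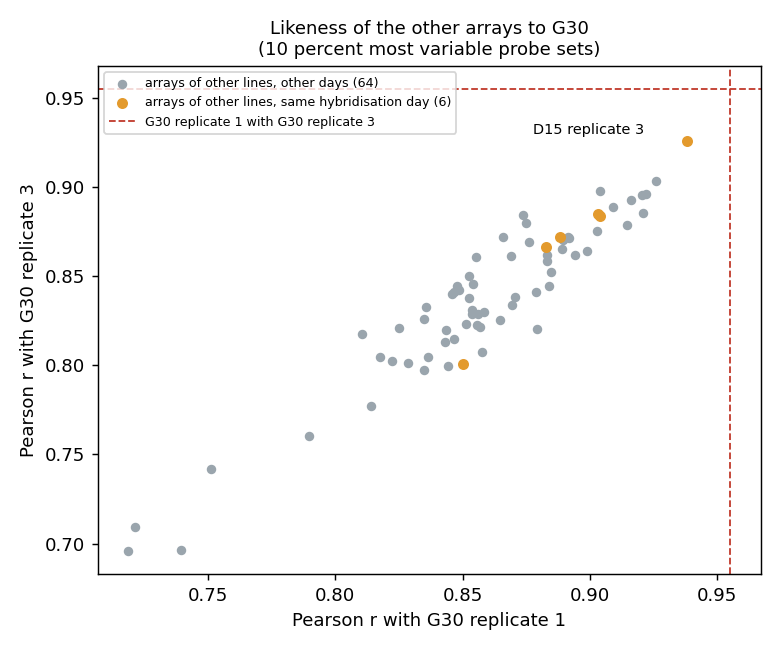
Pearson's r of each of the 70 arrays of other lines with G30 replicate 1 (x axis) and with G30 replicate 3 (y axis), over the 10% most variable probe sets. Orange points are the 6 arrays hybridised on the same day, grey points the 64 others, and dashed lines the r of 0.955 between the G30 arrays, which no other array reached.

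Few single transcripts were found to set G30 apart by more than the spread between the arrays of a line. A transcript that did not pass may still differ. Of 61179 probe sets, 12 passed the threshold against the mean of the other 35 lines (0.0196%, limma, adjusted p under 0.05). In G30, 10 were higher (0.0163%) and 2 were lower (0.00327%), with fold differences from 1.52 to 2.97 for the higher ones and of 6.11 and 6.61 for the lower ones. At an unadjusted p under 0.05 there were 4851 (7.93%), of which 2511 were higher and 2340 lower. None of the 12 has a gene symbol in the annotation of the array, so they are given by probe set. Both G30 arrays lay outside all 6 same-day arrays on the side of the difference in 9 of the 12, which the calls themselves partly fix. Over the whole array both lay outside these 6 in 10353 of 61179 probe sets. The mean over all arrays was under a log2 value of 5 in 6 of the 12, as it was in 43.8% of all probe sets, so part of the calls lie in the dim range of the array.

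This count changed with the day as a block and when single arrays were left out, and the cause of the changes was not tested. With the hybridisation day as a block, 6 probe sets were called, all higher, and 1 of the 12 was among them, TaAffx.107032.2.S1_at (limma adjusted p = 0.0461), while the other 11 had limma adjusted p between 0.0759 and 0.235. When only the 8 arrays of that day were compared, 15 probe sets passed, with 0 of the 12 among them. All 12 kept their direction (limma adjusted p between 0.138 and 0.512). On that day each other line had 1 array, so G30 alone had a spread between arrays of a line. The calls of this comparison therefore rest on another spread than the 12, and the part of the day was not tested. Left out in turn, the arrays A91 replicate 1, H5 replicate 1 and B11 replicate 3 moved the count to 22, 19 and 19. Leaving out G30 replicate 1 leaves G30 with 1 array and raises the SE by construction, so no count is given for it. Without the 22 lines in which neither array was nearest to its partner, 630 probe sets were called, all 12 included, an exclusion that lowers the residual spread by its construction.

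Among the 12, 3 probe sets had both G30 arrays above every one of the 70 other arrays. Ta.25330.1.A1_at read 6.97 and 7.12 on the log2 scale, where the other arrays ended at 6.90 and the other line means ran from 5.66 in A81 to 6.77 in C31. The groups did not overlap, and the difference from the mean of the other lines was 0.86 (SE 0.148, limma adjusted p = 0.0128), 1.82-fold. Ta.6708.1.A1_at read 4.37 and 4.08 against a highest other array of 3.96, a difference of 0.83 (SE 0.158, limma adjusted p = 0.0352). Ta.25560.1.S1_at read 4.01 in each array against a highest other array of 3.80, a difference of 0.61 (SE 0.119, limma adjusted p = 0.0467). Ta.6708.1.A1_at and Ta.25560.1.S1_at are dim probe sets, with medians of 3.39 over the other lines in both. The call of Ta.25560.1.S1_at was kept in 38 of the 72 fits that each left out 1 array. Ta.25330.1.A1_at, Ta.6708.1.A1_at and Ta.25560.1.S1_at were above the mean of the 6 same-day arrays by 0.84, 0.71 and 0.44.

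The 9 others follow from no rule and are named because they complete the count of 12, after their values were seen. In 3 of them both G30 arrays lay above every other line mean but not above every array. TaAffx.107032.2.S1_at read 6.93 and 6.11 against a highest line mean of 6.11 in G32 and a highest array of 6.22, a difference of 1.41 (SE 0.231, limma adjusted p = 0.00927). It was also the probe set closest to the limit, since replicate 3 exceeded the mean of G32 by 0.0024. TaAffx.78829.1.S1_at read 5.57 and 5.79 against line means up to 5.13 in F38a, a difference of 0.96 (limma adjusted p = 0.0243). Ta.6868.3.S1_at read 5.58 and 5.49 against line means up to 5.47 in F82, a difference of 0.60 (limma adjusted p = 0.0352). The 3 thus had G30 as the highest of the 36 lines, with 2.65-fold, 1.94-fold and 1.52-fold the mean level of the others.

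In 3 further probe sets the level of G30 was shared with at least 1 other line or array. Ta.9528.1.A1_at read 8.79 and 8.97 against a median of 7.25 over the other lines, which ran from 5.68 in B11 to 8.89 in DH95. The difference from their mean was 1.57 (SE 0.279, limma adjusted p = 0.0205), while G30 and G13 differed by 0.000922 and the 6 same-day arrays lay between 5.86 and 7.99. Ta.30775.1.S1_at read 7.77 and 8.11 with the F38b mean at 7.86, a difference from the other lines of 1.31 (SE 0.259, limma adjusted p = 0.0489). With 1 G30 array just under the F38b mean it fell just outside the range rule, and its call was kept in only 27 of the 72 fits that left out 1 array. Ta.13915.1.S1_at read 4.68 and 5.05 against a median of 3.94, below the A35 mean of 5.14, a difference of 0.78 (limma adjusted p = 0.0243).

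One call rested on a single array. Ta.30399.1.A1_s_at read 6.24 in replicate 1 but 3.81 in replicate 3, where the line means of the others ran from 3.56 to 4.04. The 2 arrays of G30 thus disagreed, with replicate 3 among the other lines, and the fitted difference of 1.31 (limma adjusted p = 0.00927) was 0.091 without replicate 1 (limma adjusted p = 0.986).

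The 2 lower probe sets read the same target. Ta.20516.1.S1_at was 4.66 and 5.07 against a median of 7.74, and Ta.20516.1.S1_x_at was 5.11 and 4.29 against a median of 7.64. Their differences from the mean of the other lines were -2.61 (SE 0.489, limma adjusted p = 0.0319) and -2.73 (SE 0.452, limma adjusted p = 0.00927). G30 was not alone at this level. The mean of A81 was 4.42 and 4.67 in the 2 probe sets, and in Ta.20516.1.S1_at the means of F29 and C10 were below G30 as well. The 6 same-day arrays ran from 4.25 to 8.32 and from 5.06 to 8.20, and in Ta.20516.1.S1_x_at replicate 3 of G30, at 4.29, lay below all 6. The highest line was F82, at 9.08 and 8.98.

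**Figure D2:**
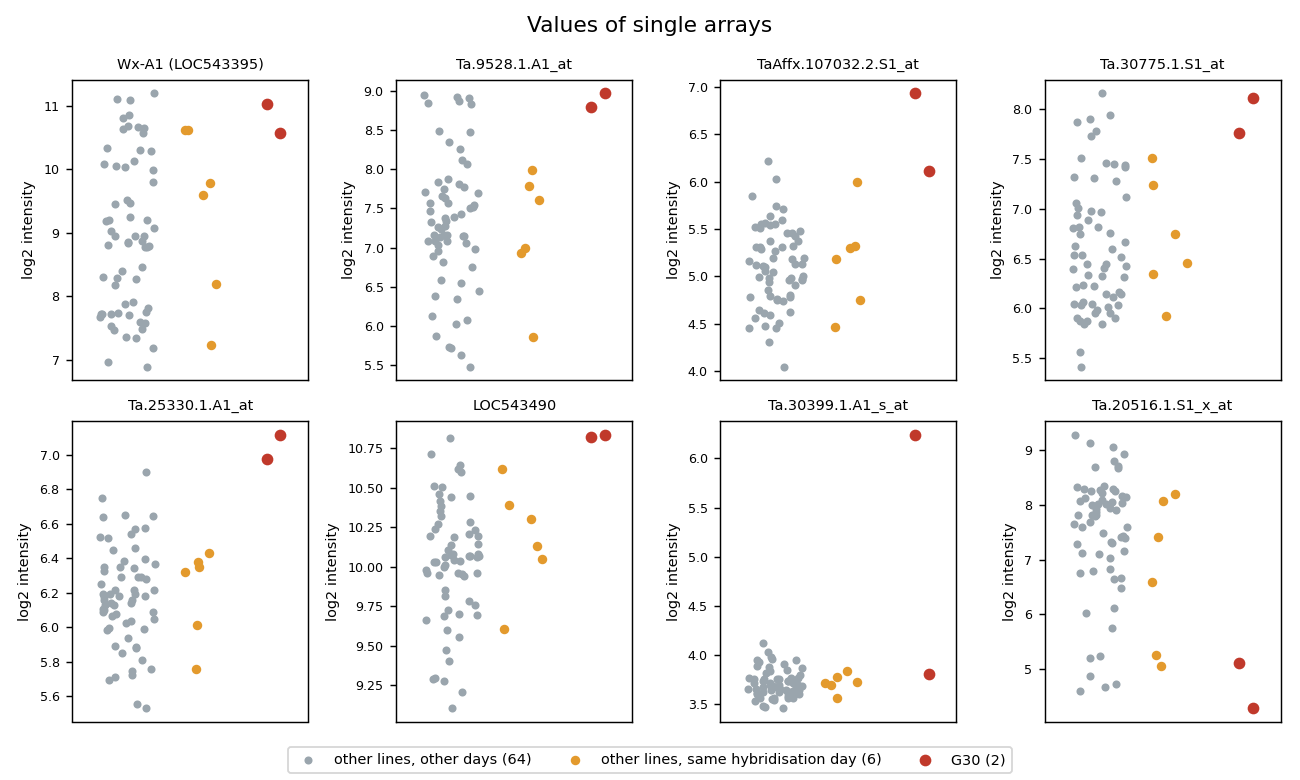
Log2 intensity of every array in 8 probe sets, 1 panel each: 64 arrays of other lines on other days (grey), 6 arrays of other lines on the hybridisation day of G30 (orange) and the 2 G30 arrays (red), spread sideways at random within a group, with y axes that do not start at 0. Both G30 arrays lie above all others in Ta.25330.1.A1_at and LOC543490. Only 1 of them does in Ta.30399.1.A1_s_at, TaAffx.107032.2.S1_at and Ta.9528.1.A1_at. In Wx-A1 the G30 arrays lie among the high arrays of other lines.

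When the calls were set aside and positions alone were counted, G30 stood at the end of the population in many more probe sets. Both arrays lay outside the range of the 35 other line means in 1640 probe sets (2.68%), above it in 793 (1.3%) and below it in 847 (1.38%). With each array centred on its median the split was 947 above and 617 below, so which end held more probe sets depended on the scaling. In a further 110 probe sets 1 array lay above and the other below the range. Both lay outside all 70 arrays in 116 probe sets (0.19%), 59 above (0.0964%) and 57 below (0.0932%). Of the 1640, 6 passed the test.

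Most of these excursions were small. Both arrays cleared the highest line mean by at least 0.25 log2 units in 51 probe sets and by at least 0.5 in 3, and cleared the lowest by at least 0.25 in 10 and by 0.5 in 0. The widest gap to all 70 other arrays belonged to Ta.8214.2.S1_at, chosen after its values were seen. It read 7.54 and 7.09, where the other arrays ran from 4.21 to 6.66 and the 6 same-day arrays from 5.69 to 6.27. Its difference of 1.90 (SE 0.385) did not pass (limma adjusted p = 0.0600). Below the population the widest gap was 0.18, in TaAffx.106908.1.S1_at, at 7.24 and 7.17 against arrays from 7.42 to 8.67.

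**Figure D3:**
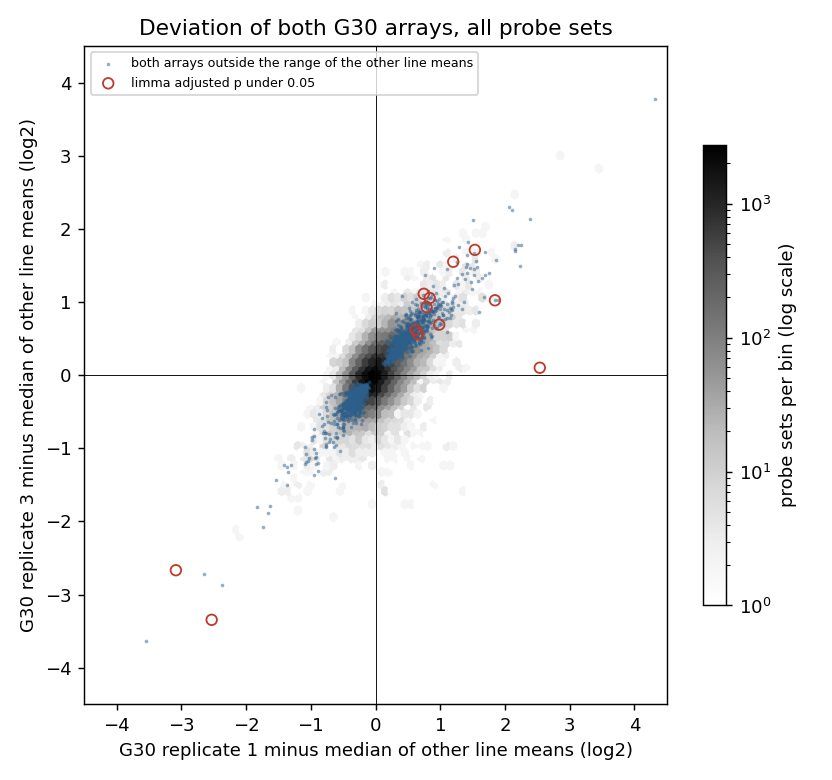
Difference of G30 replicate 1 (x axis) and of G30 replicate 3 (y axis) from the median of the 35 other line means, in log2 units, for all 61179 probe sets, shown as hexagonal bins shaded by count on a log scale. Blue points are the 1640 probe sets with both arrays outside the range of the line means and red circles the 12 that passed limma, 1 of which has only replicate 1 displaced.

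Over all probe sets, those outside the range included, the 2 arrays more often lay on the same side than on opposite sides. They lay on the same side of the median of the other line means in 40794 probe sets (66.7%), both higher in 18665 and both lower in 22129, and on opposite sides in 20385. With each array centred on its median, both were higher in 21411 and both lower in 18473, so this balance too depended on the scaling. A shift of at least 0.5 in both arrays went up in 1219 probe sets, down in 448 and in opposite directions in 101. At 1 log2 unit the counts were 200, 129 and 24. Over all probe sets the difference of G30 from the other lines had a median of -0.0225 and quartiles of -0.132 and 0.111.

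Shifts of at least 2 log2 units in both arrays were found in 66 probe sets, 32 higher and 34 lower, and in these G30 did not stand alone. Each of the 66 had at least 2 other lines within 1 log2 unit of the G30 mean, with a median of 10 lines and a maximum of 16. In 7 of the 66 both arrays were outside the range of the line means, 4 above and 3 below, and 2 passed the test, the pair of Ta.20516.1. The 66 were selected on the values of G30 itself, so agreement between its arrays there is no result. A median of 7 of the 35 other lines had arrays over 2 log2 units apart in the 66, where the median over all probe sets was 0, and the median residual SD was 1.23 against 0.217. No gene symbol is attached to any of them.

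The largest of these shifts, taken by the smaller of the 2 deviations and chosen after the values were seen, were decreases. TaAffx.105083.1.S1_at read 4.20 and 4.51 in G30 against a median of 9.40, with G32 as low at 4.21 and A88 highest at 11.21. The difference of -4.19 had an SE of 1.39 and did not pass (limma adjusted p = 0.408). D15 replicate 3 read 4.31 there while D15 replicate 1 read 10.34, so only 1 array of that line had the G30 level. Ta.10217.1.A1_at read 4.12 and 4.09 against a median of 9.01, with 8 other lines within 1 log2 unit of G30 (difference -3.70, SE 0.981, limma adjusted p = 0.236). The largest increase was that of Ta.3211.1.S1_at, at 9.14 and 9.20 against a median of 4.90, with 10 other lines near it and A81 highest at 9.40 (difference 3.41, SE 0.773, limma adjusted p = 0.139). TaAffx.92191.1.A1_at, at 8.56 and 8.03, was above all line means, the next being A81 at 7.99, yet 1 same-day array read 9.14.

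Among the 1273 probe sets that carry 1 gene symbol, 0 passed the test (limma), and 96 had an unadjusted p under 0.05 (7.54%, against 7.93% of all). The 10 with the smallest p are described here and none of them passed. The first was Ta.2795.1.S1_a_at of LOC543395 (Wx-A1, GBSS-I), which encodes the waxy protein, the starch synthase of the granule that builds amylose. It read 11.03 and 10.57 in G30 against a median of 8.75 over the other lines, which ran from 7.08 in A35 to 10.95 in A81. G30 had rank 4 of the 36 lines, after A81, D15 and A40, and same-day arrays reached 10.62, so its level was high but not outside the population. The difference from the mean of the other lines was 1.83 (SE 0.372, limma adjusted p = 0.0618), 3.55-fold. It passed in 8 of the 72 fits that left out 1 array, with the replicate number as a block (limma adjusted p = 0.0418), with a log2 value above 6 in at least 2 arrays (0.0493), without line D15 (0.0423) and without the 22 lines in which neither array was nearest to its partner (0.000798). With the hybridisation day as a block it did not (limma adjusted p = 0.187).

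Lines at either end of Wx-A1 give the scale of this value. G30 exceeded A35 by 3.72 (SE 0.518, limma adjusted p = 0.000119 over all probe sets of that pair). From A81, D15 and G13 it differed by -0.15, -0.11 and 0.15, with limma adjusted p of 0.940, 0.9995 and 0.980. A p that misses the threshold does not show that these lines are equal. The SE was 0.518 in each of these pairs.

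Of the 9 other genes with the smallest p, 7 were higher in G30 than the mean of the other lines and 2 lower, and neither their symbols nor their synonyms say what they encode. LOC543490 (Ta.260.1.S1_at) read 10.82 and 10.83 against line means from 9.40 in A81 to 10.54 in F38a. It was 1 of 2 probe sets with a symbol that were above all 70 other arrays, by a margin of 0.0033 (difference 0.79, SE 0.223, limma adjusted p = 0.287). LOC543436 (Ta.24746.1.S1_x_at) read 11.61 and 11.41 against a median of 10.79, with the mean of A40 at 11.42 between the 2 values (difference 0.75, SE 0.194, limma adjusted p = 0.225). G30 had the highest mean of the 36 lines in both.

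In LOC606353 (TaAffx.111333.1.S1_at) the G30 arrays were unequal, 5.01 and 5.77 against a highest line mean of 5.18 in H23 (difference 0.62, limma adjusted p = 0.154). LOC543030 at 6.53 and 6.42, LOC780609 at 9.69 and 9.96 and LOC543068 at 11.86 and 11.97 each had both arrays above every other line mean, with differences of 0.54, 0.47 and 0.51. LOC100037572 read 9.62 and 8.67 with a difference of 0.95 and had rank 11 of the 36 lines. On the lower side, LOC606352 (Ta.3749.1.S1_at) read 6.49 and 5.51 against a median of 6.99. Its difference was -0.99 (SE 0.309, limma adjusted p = 0.364), and its 2 other probe sets gave -0.83 and -0.33. From the mean of the 6 same-day arrays these probe sets differed by only -0.24, -0.06 and -0.0003. The part of the day was not tested. LOC778380 (TaAffx.24208.1.S1_at) read 4.24 and 4.36 against line means from 4.39, a difference of -0.36 that its other probe set, at -0.01, did not share. G30 was the lowest line in Ta.3749.1.S1_at and in TaAffx.24208.1.S1_at.

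Both G30 arrays lay outside the range of the other line means in 25 probe sets with a symbol (1.96%, against 2.68% of all), 15 above and 10 below, from 25 of the 771 genes named. The differences ran from -0.87 to 0.86. The largest decrease was that of LOC100125700, at 5.25 and 5.03 against line means from 5.45, and the largest increase that of LOC543487, at 9.81 and 9.83 against a highest line mean of 9.77 in F29. From the mean of the 6 same-day arrays they differed by -0.40 and 0.67. The lowest same-day array in LOC100125700, at 5.12, lay between the G30 arrays. Of the few with an informative synonym, LOC543219 (UBC1), a ubiquitin-conjugating enzyme, was below the range at 6.61 and 6.60 (difference -0.49, limma adjusted p = 0.592). LOC543258 (tubb2), a beta-tubulin of the microtubules, was above it at 13.01 and 12.99, with D15 next at 12.94 (difference 0.21, limma adjusted p = 0.653). LOC780593 (Ta.1248.1.S1_x_at) was the second named probe set above all 70 arrays, at 11.47 and 11.48 against 11.46. The 4 other probe sets of this gene differed by -0.02 to 0.31 and were not outside all arrays.

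Genes of the grain's main processes gave 0 calls in each of the 14 lists matched to the annotation (limma, background 0.0196%), and their counts at an unadjusted p under 0.05 stand beside 7.93% of all probe sets. Of 9 probe sets of starch and fructan metabolism, 1 had an unadjusted p under 0.05, that of Wx-A1, and the median difference was 0.094 against -0.0225 over all probe sets. LOC780575 (6-FEH), a fructan exohydrolase, read 9.38 and 9.56 (difference -0.43, limma adjusted p = 0.701), and its 2 other probe sets gave -0.17 and 0.09. LOC543299 (AGP-S), the small subunit of ADP-glucose pyrophosphorylase that supplies the substrate of starch synthesis, read 11.28 and 11.29 (difference 0.09). LOC543318 (BMY1), a beta-amylase, read 12.93 and 12.73 (difference 0.13). Apart from Wx-A1 the starch genes of G30 were thus within 0.5 log2 units of the population mean.

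Photosynthesis genes, which mark the green pericarp, had 37 probe sets, 28 of them of rbcl, the large subunit of Rubisco encoded in the chloroplast. At an unadjusted p under 0.05, 1 was higher and 2 were lower, with a median difference of -0.0158. LOC100049018 (rbcl) was represented by TaAffx.128896.17.S1_s_at at 3.92 and 4.63 (difference 0.55, limma adjusted p = 0.504) and TaAffx.128414.126.S1_at at 3.13 and 3.39 (difference -0.23, limma adjusted p = 0.563). The 28 probe sets of rbcl differed by -0.23 to 0.55, and its 2 brightest, Ta.24976.1.S1_x_at at 14.64 and 14.83 and TaAffx.128414.1.A1_x_at at 14.64 and 14.85, differed by 0.09 and 0.10. PsbO, of the oxygen-evolving complex, read 12.54 and 12.28 (difference -0.13), and petC, the Rieske protein of the cytochrome complex, read 12.34 and 12.08 (difference -0.18). Both lay far above the array medians of 5.36 and 5.33, and replicate 1 was the higher array in both.

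Storage protein and defence genes gave no call in G30. Gliadins, glutenins and avenin-like proteins had 17 probe sets, 0 at an unadjusted p under 0.05, and a median difference of -0.074. LOC100125692 (avnlb), an avenin-like protein, read 5.35 and 5.57 in Ta.27777.1.S2_s_at (difference -0.23, limma adjusted p = 0.669) and differed by -0.18 in Ta.27712.1.S1_at (limma adjusted p = 0.782), while its brighter Ta.27777.1.S1_at, at 10.50 and 10.54, differed by 0.14. Serpins, amylase inhibitors and thionins, which inhibit proteases and digestive enzymes or damage microbes, had 18 probe sets with 0 at that level and a median of -0.0574. LOC542997 (xip), a xylanase inhibitor, read 10.11 and 10.10 (difference -0.37, limma adjusted p = 0.759), and LOC543382 (WSZ2b), a serpin, read 4.04 and 4.09 (difference 0.15, limma adjusted p = 0.705). TaGlu1a (LOC780595), a beta-glucosidase, read 7.81 and 8.43 with a difference of -0.75 (SE 0.503, limma adjusted p = 0.73), and PR5 (LOC543292) differed by -0.10 (limma adjusted p = 0.889). Both are listed under defence.

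Embryo and late embryogenesis genes had 12 probe sets with 1 higher and 1 lower at an unadjusted p under 0.05 and a median of -0.0835. PER1 (LOC543108), a peroxiredoxin of embryo and aleurone, read 6.52 and 6.54, rank 2 of the 36 lines (difference 0.32, limma adjusted p = 0.571), while its other probe set, Ta.14503.1.S1_at, gave -0.18 at rank 30. Em (LOC543480), a late embryogenesis protein, read 4.92 and 4.70 in Ta.25025.1.S1_s_at (difference -0.26, limma adjusted p = 0.603). Its other probe sets, Ta.25025.1.S1_at and Ta.25025.1.S1_x_at, gave -0.12 and 0.01. PER1 is also counted in the antioxidant list, of 12 probe sets with 1 higher at that level, where TaPrx1 (LOC606328) read 10.71 and 10.35 (difference -0.36, limma adjusted p = 0.638). Raftin genes, which are expressed in anthers, had 4 probe sets between 3.45 and 5.70 in G30. LOC543009 (raftin1b) and LOC543442 (raftin1a) differed from the other lines by -0.17 and -0.09 (limma adjusted p of 0.817 and 0.822). No anther marker passed the test.

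In heat shock genes the G30 arrays of 1 gene were far apart. LOC543277 (hsp16.9A), a small heat shock protein, read 7.98 in replicate 1 and 5.31 in replicate 3, where the other line means ran from 4.25 to 12.47. Its difference of -0.08 had an SE of 1.65 (limma adjusted p = 0.995), so G30 lay in the middle of the population, at rank 15. LOC543314 (FKBP70), a peptidyl-prolyl isomerase, read 10.76 and 10.62 (difference -0.52, limma adjusted p = 0.72). Both genes of the list were measured by 1 probe set each.

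Histone and chromatin genes, which accompany DNA replication in dividing tissue, did not pass the test. All 20 probe sets, of 6 genes, had a positive difference from the mean of the other lines, from 0.0454 to 0.406 with a median of 0.133, and the 20 were also positive after quantile normalisation and after median centring. Of the 20, 1 had an unadjusted p under 0.05. Replicate 3 was above the median of the other lines in all 20 and replicate 1 in 8. LOC732714 (H2A-9), a histone of the nucleosome core, read 12.25 and 12.65 in Ta.27657.14.S1_x_at, highest of the 36 lines (difference 0.30, SE 0.147, limma adjusted p = 0.622). Its Ta.27657.14.S1_s_at read 12.40 and 12.75 (difference 0.28, limma adjusted p = 0.697). Replicate 3 was the higher array in both, and without it the differences were 0.103 and 0.106. The other probe sets of H2A-9 differed by 0.14, 0.13, 0.13 and 0.10, with G30 at ranks 2, 4, 10 and 7. Replicate 1 was below the median of the other lines in each of them. Histone probe sets share much of their sequence, so the 20 are not independent, and members without a symbol were not counted.

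The remaining lists gave small differences of both signs. Translation genes had 9 probe sets with a median of 0.0922, among them RPL9 (LOC543077), a ribosomal protein, at 9.91 in both arrays (difference 0.21, limma adjusted p = 0.773) and eIF-2-beta (LOC543269), an initiation factor, at 10.93 and 11.08 (difference 0.21, limma adjusted p = 0.795). Tubulin and cell wall genes had 11 probe sets with a median of -0.0384. In contrast to tubb2, Tubb5 (LOC543261) read 11.90 and 12.03 in Ta.214.1.S1_x_at (difference -0.30, limma adjusted p = 0.684), and its 4 probe sets ran from -0.37 to -0.21. Gibberellin 20-oxidases, which make precursors of active gibberellins, had 4 probe sets with a median of -0.154, and GA20ox1b (LOC543326) and GA20ox1d (LOC543325) differed by -0.16 and -0.25 (limma adjusted p of 0.744 and 0.761). Transport genes had 5 probe sets with a median of 0.105, among them the malate channel ALMT1-1 (LOC543388) at -0.23 and a proton pump (LOC543149) at -0.08 (limma adjusted p of 0.712 and 0.888). The 2 other probe sets of LOC543149 differed by 0.11 and 0.10.

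**Figure D4:**
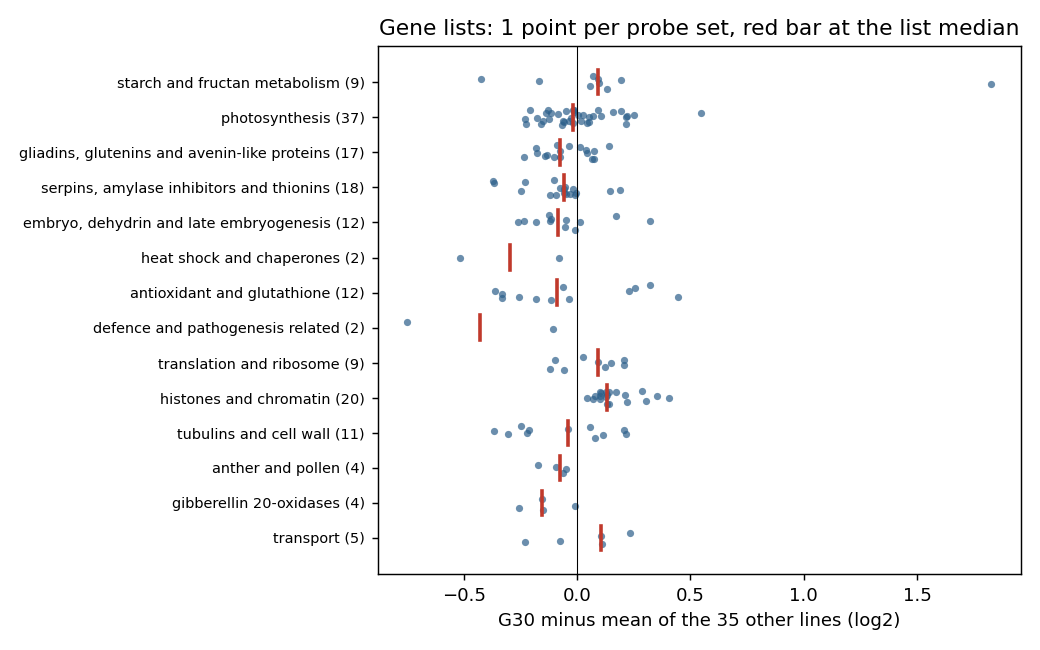
Difference of G30 from the mean of the 35 other lines, in log2 units, for every probe set of the 14 gene lists (points, with the number of probe sets in brackets) and the median of each list (red bar). The Wx-A1 point at 1.83 stands apart from the rest, and all 20 histone and chromatin points lie to the right of 0.

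Set beside the other lines, each compared with its own 35 others, G30 was prominent in agreement between arrays rather than in the count of calls. The correlation over all probe sets between the deviations of its 2 arrays was 0.599, at rank 4 of 36 after A81 at 0.679, G13 at 0.646 and F29 at 0.606, where the 35 other lines had a median of 0.245. The share of probe sets with both arrays on the same side was the highest, 66.7% against a median of 54% and a maximum of 65%. Its 1640 probe sets outside the line range took rank 4, after E5 with 3413, A81 with 2295 and A91 with 1744, against a median of 677. Its 12 calls took rank 14, against a median of 1 and a highest count of 966. F38a, the other line with both arrays on 1 day, had a correlation of 0.110, 492 probe sets outside the range and 0 calls (limma, 2199 at an unadjusted p under 0.05). These are positions of the lines and were not tested. The G30 arrays share a hybridisation day, so line and day cannot be told apart in their agreement, and F38a alone cannot separate them.

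**Figure D5:**
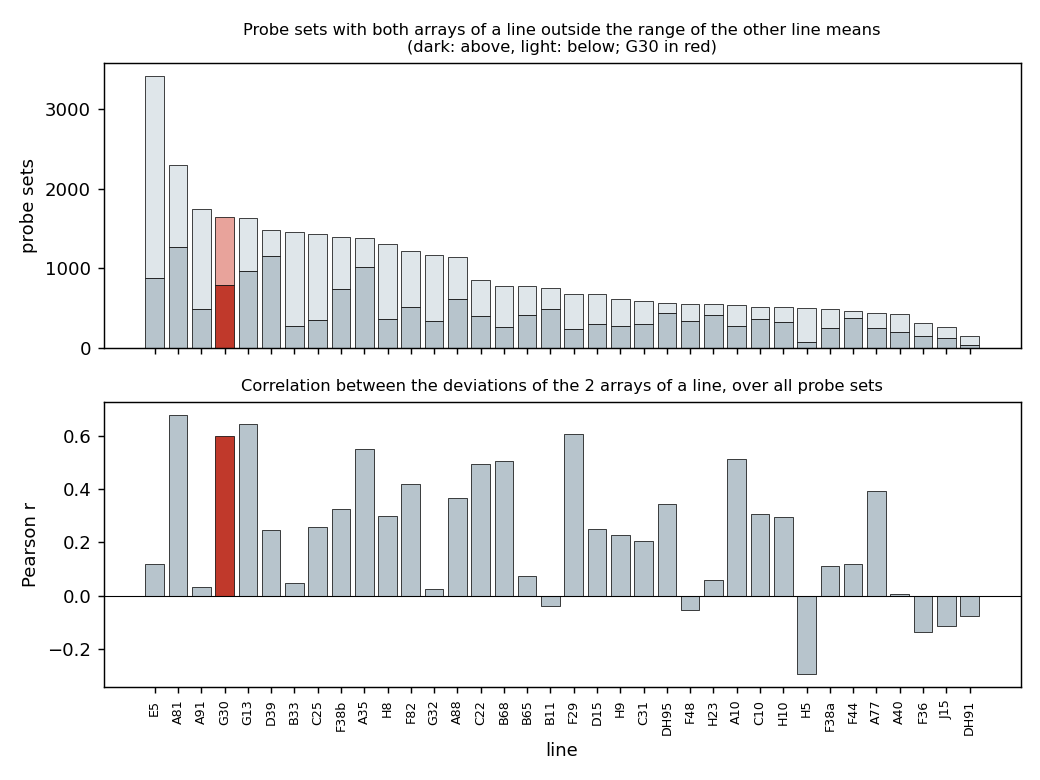
For each of the 36 lines, the number of probe sets with both of its arrays above (dark) or below (light) the range of the other line means (upper panel), and Pearson's r between the deviations of its 2 arrays over all probe sets (lower panel). G30, in red, has rank 4 in both measures.

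Direct comparisons of G30 with single lines tested the difference between 2 arrays and 2 arrays. They share the G30 arrays and are given side by side. Against A81, 1045 probe sets differed (1.71%, limma), with 606 higher and 439 lower in G30. Against G13 there were 174 (0.284%), 95 higher and 79 lower, and against A35 there were 71 (0.116%), 25 higher and 46 lower. Against D15, whose replicate 3 was the nearest array to G30, 0 passed (0%, limma), with 2686 at an unadjusted p under 0.05. The D15 arrays were unlike, with r of 0.829 and 0.938 to replicate 1 of G30. The absence of calls does not show that the lines are alike.

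Several of the 12 probe sets were also among those that differed from single lines. The 12 were selected with the same G30 arrays against a mean that includes A81, G13 and A35. Their passes here are therefore no separate support. Ta.25330.1.A1_at was higher in G30 than in A81 by 1.39 and than in G13 by 1.33 (limma adjusted p of 0.000423 and 0.00254), and the difference of 0.84 from A35 did not pass (limma adjusted p = 0.0965). Ta.30775.1.S1_at exceeded A81 by 1.93 and A35 by 1.83 (limma adjusted p of 0.00367 and 0.0188). Ta.20516.1.S1_x_at was lower than in A35 by 3.19 and than in G13 by 2.90 on the log2 scale (limma adjusted p of 0.0188 and 0.0284), whereas the difference from A81 was 0.03 (limma adjusted p = 0.990).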

How the data were processed

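Transcripts were measured in seeds of 36 wheat lines with 72 1-colour arrays. The deposited values are linear probe set intensities from 6.025 to 29610, per the deposited table, and RMA is named per the submitters' processing notes, with no version. The labels do not say if the 72 arrays were processed jointly. The values were log2-transformed here (pseudocount 0). The number of arrays limits the precision, and there is no depth in counts. Groups were taken from the titles, hybridisation days from the array run records.

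Of 61290 probe sets, 111 controls were left out, and 61179 were tested without a filter. The array annotation gives 1 symbol to 1273, several to 0 and none to 60017, which are unnamed here. Of 771 genes named, 770 were in the supplied RefSeq table. No coordinates or sequences are printed, since the build behind the annotation is not named. How far probe sets read several subgenome copies was not analysed here.

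G30 was compared with the equal-weight mean of the 35 other line means in limma 3.58.1 (R 4.3.3), with 1 mean per line over all 72 arrays (36 residual degrees of freedom), two-sided, with Benjamini-Hochberg adjustment over all probe sets and a threshold of 0.05. The spread tested is that between the 2 arrays of a line, which the labels call biological replicates. Positions outside ranges and shifts to the same side are descriptions with no test. The procedure was tested on simulated data. Named are the 10 probe sets with a symbol and the smallest p (none passed), those called and outside all 70 other arrays, and the 2 members of each list with the smallest p. Others are marked as chosen after their values were seen, and in the lists further members are given for their role. The members and the 14 gene lists were chosen with earlier results of these data known.

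Alternatives were quantile normalisation, median centring, the replicate number or hybridisation day as a block, the control-gene 3 prime to 5 prime signal ratio as covariate, filters on dim probe sets, a pseudocount of 16, robust moderation, line means as samples, the median of the other lines as the reference, and leaving out arrays or lines. The comparison within the hybridisation day and the fit without line D15 were chosen after seeing the data.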

Additional observations from a re-analysis of the deposited data

How the results depend on the processing

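The count of 12 calls was 13 after quantile normalisation, 12 after median centring, 10 with the control-gene 3 prime to 5 prime signal ratio as covariate, 17 with a pseudocount of 16, 13 with robust moderation, 11 with a log2 value above 6 in at least 2 arrays, 14 without the 3 farthest arrays and 17 without line D15. It was 6 with the hybridisation day as a block (6 higher, 0 lower) and 5 among the 34369 probe sets with a mean log2 value above 5. With limma on the 36 line means, where G30 has 1 value and the spread is that between lines, it was 6. Of these, 2 were among the 12: Ta.30399.1.A1_s_at, whose call rested on a single array, and the dim Ta.6708.1.A1_at. Ta.25330.1.A1_at was not among them. Without the 22 lines whose arrays were not nearest to each other the count was 630, and Wx-A1, LOC543436, LOC543490, LOC606352 and LOC606353 passed (limma adjusted p from 0.000798 to 0.0477). The fits that left out 1 array gave up to 22 (without A91 replicate 1), where the lone array of a line is assumed to vary like the others. A fit that leaves G30 with 1 array has a larger SE by construction, and its count is not given. Apart from the construction of the filters and exclusions, the cause was not tested.

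The 1640 probe sets outside the line range were 1588 after quantile normalisation, 1564 after median centring and 1723 without D15. With a mean log2 value above 5 they were 1029 (644 above, 385 below), and against all 70 arrays 116. The 40794 probe sets shifted the same way were 39961 and 39884 under the 2 scalings.

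On average the replicate number did not pair the samples, but pairs of lines varied widely. Over 35 lines the deviations of same-numbered arrays correlated by 0.039 on average, down to -0.75, and 42.7% of 595 pairs of lines were above 0.1. With the replicate number as a block 14 probe sets were called, the 12 among them, and Wx-A1 passed (limma adjusted p = 0.0418).

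Signs turned for 5 listed probe sets, none of them called. With the day as a block the difference was 0.10 for LOC100125692 (Ta.27712.1.S1_at), 0.0278 for LOC606328 (Ta.6572.1.S1_at) and 0.0359 for LOC543149 (TaAffx.55278.1.S1_x_at). Within the day it was 0.0461 for LOC606328 and 0.0187 for LOC543149. LOC543277 (Ta.24332.1.S1_at) gave 0.538 against the median of the other lines and -1.41 to 1.26 when 1 array was left out. LOC543292 (Ta.24501.1.S1_at) gave -0.296 to 0.0875 in those fits.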
